A study of Mus musculus with 12 samples.

Results

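Gene-desert regions are the accessible stretches of chromatin that lay more than 200 kb from the span of every protein-coding gene. They were found by merging the overlapping ATAC-seq peaks of all 12 libraries on chromosomes 1 to 19 into regions, and by measuring the distance from each region to the genes of RefSeq on mouse build mm10 (GRCm38.p6). Of 222625 autosomal regions 15006 (6.74%) met this rule, and the other 207619 lay in genes or within 200 kb of them. The rule used position only and no measured level. The 681 regions up to 10 kb inside the limit had a median width of 132 bp, 55.7% of them were called in 1 library and 2.06% in all 12. The 716 regions up to 10 kb outside it had 141 bp, 52.0% and 3.21%. The nearest ones lay 200005 bp and 199995 bp from a gene.

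The cells were mTEChi, mature medullary thymic epithelial cells sorted from digested thymus of C57BL/6 mice aged 4 to 7 weeks. Aire -/- mice, which carry no working copy of the autoimmune regulator gene, gave 2 libraries. Heterozygotes with 1 wild-type allele and 1 missense allele, Aire +/C313Y or Aire +/C442G, gave 2 libraries each. Each of these 3 genotypes had its own pair of Aire +/+ libraries, called here the wild types of the knockout, C313Y and C442G sets. The pairs were matched by the form of the titles, and nothing says whether libraries of a group came from separate mice, so p-values measure only the spread between these libraries, which may be technical. How the null allele was made is not given in the sources used here.

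Gene deserts are long stretches without protein-coding genes. Some of them hold enhancers that act over long distances on a developmental gene at their edge, and others hold little known regulatory sequence. In ATAC-seq a transposase cuts and tags open chromatin, so an accessible region stands out as a peak of inserted reads. AIRE acts in these thymic cells on chromatin that lacks activating marks, where it promotes expression of genes of other tissues. The libraries allow its genotypes to be compared far from any gene.

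RefSeq places the start of some long non-coding RNAs (lncRNAs) in these deserts, and those starts give sequence for a few of the regions that were called in all 12 libraries. Below are 5 of them, each the 300 bases around the start, 5′ to 3′ on the strand of the lncRNA, with the bases that lay inside a peak in every library in capitals. They were picked for the number of such bases, after the lists were seen.
Gm26901: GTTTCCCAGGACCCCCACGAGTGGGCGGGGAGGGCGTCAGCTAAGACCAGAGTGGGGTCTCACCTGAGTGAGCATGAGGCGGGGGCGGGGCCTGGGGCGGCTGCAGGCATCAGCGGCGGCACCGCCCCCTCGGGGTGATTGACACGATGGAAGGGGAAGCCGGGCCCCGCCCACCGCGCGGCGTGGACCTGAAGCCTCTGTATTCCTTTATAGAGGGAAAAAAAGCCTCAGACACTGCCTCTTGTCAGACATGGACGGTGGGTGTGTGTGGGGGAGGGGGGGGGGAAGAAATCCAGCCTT
Gm35425: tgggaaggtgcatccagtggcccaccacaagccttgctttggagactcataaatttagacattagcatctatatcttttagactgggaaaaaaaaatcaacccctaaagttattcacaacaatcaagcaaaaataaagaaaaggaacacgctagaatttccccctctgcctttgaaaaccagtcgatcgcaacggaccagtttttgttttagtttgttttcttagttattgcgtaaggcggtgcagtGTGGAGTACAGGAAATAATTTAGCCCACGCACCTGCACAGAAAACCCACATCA
Gm41259: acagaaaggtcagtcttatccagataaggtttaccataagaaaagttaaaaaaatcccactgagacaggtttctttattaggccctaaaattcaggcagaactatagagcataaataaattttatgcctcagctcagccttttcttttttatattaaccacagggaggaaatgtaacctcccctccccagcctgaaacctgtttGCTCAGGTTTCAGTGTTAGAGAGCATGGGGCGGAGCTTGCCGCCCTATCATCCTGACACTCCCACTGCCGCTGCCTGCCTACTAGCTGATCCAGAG
1700007F19Rik: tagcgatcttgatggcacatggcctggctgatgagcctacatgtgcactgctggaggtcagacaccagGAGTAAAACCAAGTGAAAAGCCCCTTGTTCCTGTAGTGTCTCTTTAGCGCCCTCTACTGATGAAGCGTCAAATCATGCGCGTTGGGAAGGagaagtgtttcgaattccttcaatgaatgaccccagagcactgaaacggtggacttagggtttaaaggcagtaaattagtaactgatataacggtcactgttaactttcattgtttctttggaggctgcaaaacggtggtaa
Gm30257: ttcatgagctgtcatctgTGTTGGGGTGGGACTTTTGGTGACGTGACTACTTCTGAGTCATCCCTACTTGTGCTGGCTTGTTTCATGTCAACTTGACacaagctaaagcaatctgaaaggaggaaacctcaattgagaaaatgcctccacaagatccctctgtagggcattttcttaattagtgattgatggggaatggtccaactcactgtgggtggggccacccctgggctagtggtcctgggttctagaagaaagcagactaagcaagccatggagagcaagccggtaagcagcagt
The Gm26901 start, at chr1:7398047-7398346 on the minus strand between Pcmtd1 and Sntg1, was open over all 300 bases, with a GC content of 65.7% and 18 CpG dinucleotides. The other 4 were open over 53 to 96 bases. Gm35425, at chr3:35318187-35318486 on the plus strand between Sox2 and Atp11b, had 53 such bases, at its 3′ end. Gm41259 stood at chr15:6044655-6044954 (minus, between Ptger4 and Dab2) with 96, 1700007F19Rik at chr3:58163758-58164057 (minus, between Pfn2 and Tsc22d2) with 90, and Gm30257 at chr2:72733571-72733870 (plus, between Cdca7 and Sp3) with 79. A search for 10 motifs on both strands is set out with the lncRNA starts below. It found the CTCF core in Gm26901 from base 15 and the AP-1 letters TGANTCA in Gm30257 from base 54, both inside the open bases. In Gm41259 it found the RUNX site from base 156 and the grainyhead site from base 196, both outside the open bases. Gm35425 and 1700007F19Rik had no match.

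MicroRNA hairpins were the other annotated sequence under desert regions. Of 45 hairpins in deserts 4 were overlapped by a region, beside 122 of 919 hairpins on all autosomes. The mature sequences of the 3 hairpins called in most libraries are shown, 2 of which share theirs, with their seeds (bases 2 to 8) in capitals.
miR-344-3p: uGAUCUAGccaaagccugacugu
miR-344-5p: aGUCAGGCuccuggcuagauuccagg
miR-802-5p: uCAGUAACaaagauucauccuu
miR-802-3p: aCGGAGAGucuuugucacucag
Mir344 and Mir344-2, which have the same mature sequences, lay in a desert of chromosome 7 before Ndn, an imprinted gene active in neurons. The region over Mir344 (chr7:61877581-61878064) was called in 10 libraries and that over Mir344-2 (chr7:61940002-61940382) in 9. Both were missing in the 2 wild types of the knockout set, and the second also in wild-type replicate 2 of the C313Y set. The region over Mir802, between Runx1 and Setd4 (chr16:93369607-93370038), was called in 8 libraries.

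Each library had a list of peaks without reads, so depth was unknown and the length of the list is its only trace. On the autosomes the lists held 33502 to 120031 peaks. The wild types of the knockout set had the shortest, and these 2 libraries had peaks within 1 kb of 8 and 9 of 10 genes of mature medullary epithelium, against 9 or 10 elsewhere. Peaks at 8 of these genes, Aire, Foxn1 and Epcam among them, were in all 12 libraries. Thymocyte genes had peaks at 2 to 4 of 8 per library, with Lck in all 12 libraries and Cd8a and Rag1 at 0 throughout. Dendritic cell and macrophage genes reached 2 to 6 of 8, with Flt3 and Xcr1 in all 12 and Siglech at 0. B cell genes reached 1 or 2 of 4, with Pax5 in all 12 and Ms4a1 at 0, and fibroblast and endothelial genes 4 to 8 of 8, with Pdgfra, Pecam1 and Tek in all 12. The part of other cells in the desert lists was not tested.

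1 library stood apart in the deserts. Wild-type replicate 1 of the C313Y set held 5042 desert regions against 1996 in its replicate 2, and 2818 of them (55.9%) were called in no other library. In the other 11 libraries 8.84% to 31.6% of desert regions were their own alone. Without it there were 12203 desert regions among 205333 (5.94%). The main results that rest on it, such as recurrence and the number and share by genotype, are given with and without it. Values by distance and by gap include it throughout.

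The number of desert regions ran from 833 to 5719 over the libraries. Aire -/- libraries had 3977 and 4104 desert regions and their wild types 1021 and 833. Aire +/C442G libraries had 5719 and 5305, and their wild types 3707 and 3542. In both sets every mutant library lay above both of its wild types, and in the C313Y set the groups overlapped, with 2851 and 1952 regions in heterozygotes and 5042 and 1996 in wild types.

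The share of a library's autosomal regions that lay in deserts had a like order. It was 4.87% and 4.55% in Aire -/- against 3.11% and 2.56% in wild types. Aire +/C442G gave 4.85% and 4.79% against 4.12% and 3.92%, again with no overlap. Aire +/C313Y gave 3.94% and 3.56%, on either side of the 3.73% of wild-type replicate 2 and below the 7.16% of replicate 1.

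**Figure D1:**
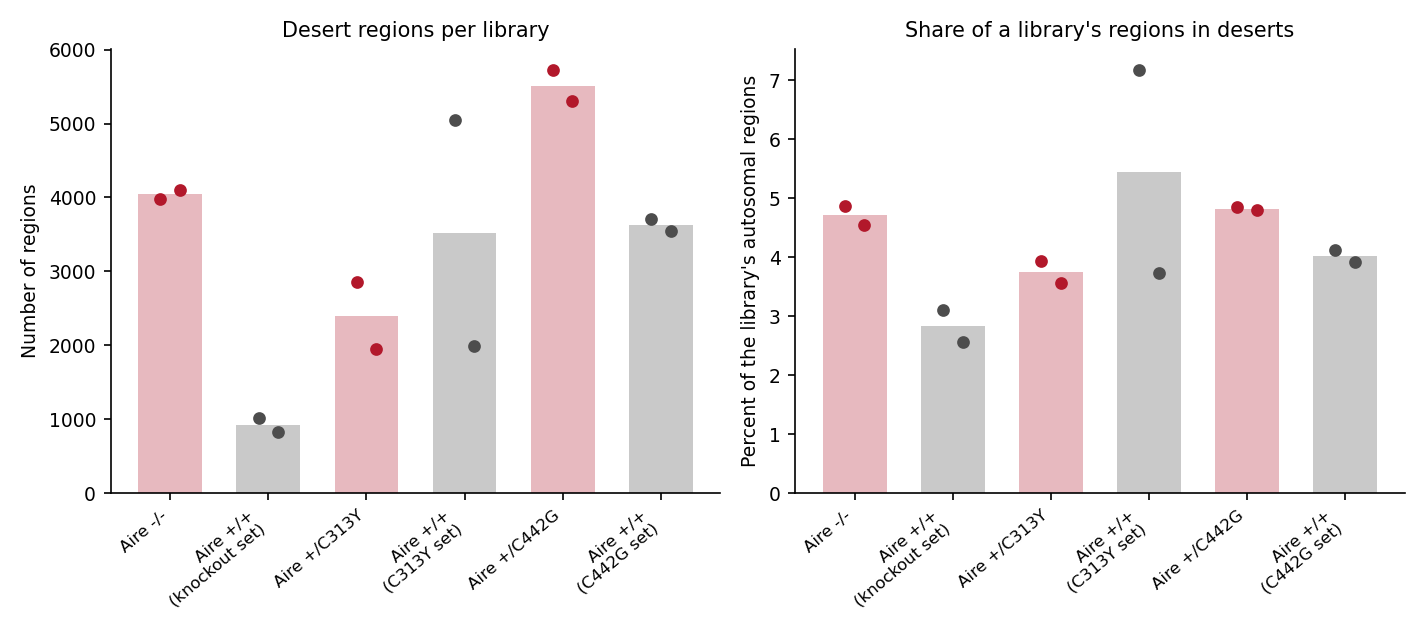
The left panel plots the number of desert regions and the right panel the share of autosomal regions in deserts (percent), 1 point per library, with bars at the mean of the 2 libraries of a group (red, mutant genotypes; grey, wild types). Aire -/- and Aire +/C442G libraries lie above their own wild types in both panels, and wild-type replicate 1 of the C313Y set lies at 7.16% in the right panel, above all other libraries.

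In group means Aire -/- had 4040.5 ± 89.8 desert regions (SD, n = 2) and its wild types 927 ± 133 (n = 2), a ratio of geometric means of 4.38 (log2 2.13). Regions nearer to genes gave a ratio of 2.58 in the same libraries. Aire +/C442G had 5512 ± 293 against 3624.5 ± 117, a ratio of 1.52, where other regions gave 1.26. Aire +/C313Y had 2402 ± 636 against 3519 ± 2154, a ratio of 0.744, with 1.04 in other regions. In Aire -/- and Aire +/C442G the desert ratio was thus the larger one, and in Aire +/C313Y the smaller. Against all 6 wild types the ratio was 1.84 for Aire -/- and 2.51 for Aire +/C442G, and where peaks had to cover at least 50% of a region the Aire -/- ratio was 6.50.

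None of these differences passed a test with all 12 libraries. With 2 libraries against 2 the smallest p of an exact permutation test (two-sided) is 0.333, and both Aire -/- and Aire +/C442G were at it. Over the 3 contrasts, with labels exchanged within each, the mean log2 ratio of desert regions was 0.77 (exact permutation p = 0.167, adjusted p = 0.25 over number, share and width by Benjamini-Hochberg), higher in mutants in 2 of 3 contrasts. The share differed by 0.33 percentage points (exact permutation p = 0.787, adjusted p = 0.787).

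Both values rested on the C313Y wild type that stood apart. Without it the number gave 0.99 and the share 0.90 points, each with an adjusted p of 0.0417 by the exact permutation test, and the C313Y contrast turned to 0.24 for number and 0.024 points for share. That library was left out because of its share, the measure then tested again, and it leaves 1 wild type in the C313Y set, so these p-values are not independent evidence. Both also changed when the lists were shortened. When each list was shortened to the length of the shortest in its set, keeping the strongest peaks by −log10 p (in the C313Y set, which has no scores, the widest), Aire -/- libraries held 884 and 878 desert regions against 1017 and 833 in wild types, a log2 ratio of -0.063. The share was then 2.69% and 2.67% against 3.13% and 2.56%, and over the 3 contrasts the number gave -0.13 and the share -0.42 points (exact permutation p = 0.537 for each). Aire +/C442G kept 3788 and 4170 against 3709 and 3536. A cut by strength takes desert peaks more than others, since their median percentile was 34.2 and 36.2 in the full Aire -/- lists. In the C313Y set a cut by width takes the narrower desert peaks in the same way. The wild types of the knockout set stayed almost whole, so the shortened lists cannot show whether number and share go with list length or genotype. Depth and genotype cannot be told apart in the longer lists.

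Desert peaks were on average wider in mutants than in their own wild types, but the difference passed no test. The median width of desert peaks was 109 and 125 bp in Aire -/- against 95 and 107 bp in wild types, 124 and 114 bp in Aire +/C313Y against 104 and 115 bp, and 157 and 154 bp in Aire +/C442G against 154 and 147 bp. The groups of the knockout set did not overlap, those of the C313Y set overlapped, and those of the C442G set met at 154 bp. Over the 3 contrasts mutant peaks were wider by 0.13 on the log2 scale (ratio 1.09, higher in 3 of 3 contrasts, exact permutation p = 0.0370, adjusted p = 0.111), which missed the threshold of 0.05. Against all 6 wild types the log2 difference was -0.020 for Aire -/-, 0.0063 for Aire +/C313Y and 0.39 for Aire +/C442G. In the lists of equal length Aire -/- widths were 163.5 and 190 bp against 95 and 107 bp, a ratio of 1.75. There the Aire -/- lists were cut from 84037 and 93198 peaks to their 33502 strongest. Their wild types, with 33933 and 33502, stayed almost whole. The ratio thus sets strong peaks beside nearly all peaks and cannot show a genotype difference. Over the contrasts the ratio in such lists was 1.36 (adjusted p = 0.0556 by the exact permutation test), with the same limit and in part from lists that were themselves cut by width. A larger gap ran between the sets: both genotypes of the C442G set had desert peaks of 147 to 157 bp, and the other 8 libraries 95 to 125 bp.

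Desert regions were narrower, weaker, sparser and less often shared by replicates than regions near genes. In every library the median desert peak was narrower than the median of other peaks, by 0.33 ± 0.13 on the log2 scale (SD, n = 12, a ratio of 0.797). Desert peaks measured 95 to 157 bp in the median and other peaks 128 to 177 bp. The exact sign-flip permutation test over libraries gave p = 0.000488, the smallest 12 libraries can give (adjusted p = 0.000977 over 4 measures). Libraries cover the same loci, so they are not independent draws of the genome.

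The interiors of deserts were thinly covered. Between neighbouring protein-coding genes more than 400 kb apart, the sequence over 200 kb from both came to 479.6 Mb, 19.7% of the autosomes between the first and last gene of each chromosome. There were 1.71 to 11.9 desert regions per Mb of it and 16.2 to 57.5 regions per Mb elsewhere. The log2 ratio was -2.52 ± 0.40 (SD, n = 12), a ratio of 0.174, below 0 in 12 of 12 libraries (exact permutation p = 0.000488, adjusted p = 0.000977). The ratio was highest, at 0.312, in the wild type that stood apart, and 0.105 to 0.207 in the others.

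In the 8 lists that carry the authors' scores, desert peaks ranked below the middle of their own list by −log10 p. Their median percentile was 34.2 to 40.7, where 50 is the middle, a difference of -12.4 ± 2.2 (SD, n = 8) that had the same sign in 8 of 8 lists (exact permutation p = 0.00781, adjusted p = 0.0104). The median fold enrichment given by the authors' caller was 3.62 to 4.41 for desert peaks and 4.19 to 4.73 for others. Deserts gave 0.865% to 1.53% of the strongest 10% of peaks in a list. In the weakest 10% they gave 4.26% to 9.48% in the Aire -/- libraries and the C442G set, but only 1.03% and 1.13% in the wild types of the knockout set.

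Replicates shared fewer of their desert regions. Of desert regions called in at least 1 Aire -/- library, 37.2% were in both, against 52.5% of other regions. The same shares were 25.3% and 48.5% in the wild types of the knockout set, 39.3% and 56.1% in Aire +/C313Y, and 19.3% and 43.8% in the wild types of the C313Y set. Sharing was highest in the C442G set, with 55.3% against 64.9% in heterozygotes and 51.3% against 63.1% in wild types. The deficit was 16.9 percentage points on average (lower in 6 of 6 groups, exact permutation p = 0.0313, the smallest 6 groups allow). Leaving out a group's pair leaves 5 groups, for which p cannot go below 0.0625: without the wild types of the C313Y set, which then lack a pair, the difference was -15.4 points.

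Most desert regions were seen once. Of the 15006 desert regions 9010 (60.04%) were called in 1 library, against 42.8% of other regions. In 6 or more libraries there were 2252 (15.0%), against 30.1%. All 12 libraries shared 282 desert regions, 1.88%, against 8.66% of other regions, so deserts supplied 9.21% of the regions seen once and 1.54% of those seen everywhere. Without the wild type that stood apart, 53.0% of desert and 39.9% of other regions were seen once, and 299 (2.45%) and 9.69% were in all 11.

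Width and recurrence moved together, in part by construction. A merged region spans the peaks of all its libraries, so more libraries make it wider, and a wider one takes in more peaks. Desert regions had a median merged width of 111 bp and other regions 171 bp, or 125 and 180 bp without the wild type that stood apart. At equal recurrence the widths were close: 90 and 92 bp in 1 library, 324 and 307 bp in 6, and 452 and 412 bp in 11. From 5 to 11 libraries the desert regions were the wider. Among regions in all 12 the order turned, with 488 bp in deserts and 604 bp elsewhere. The widest desert region spanned 1589 bp, and the widest other region 5781 bp.

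**Figure D2:**
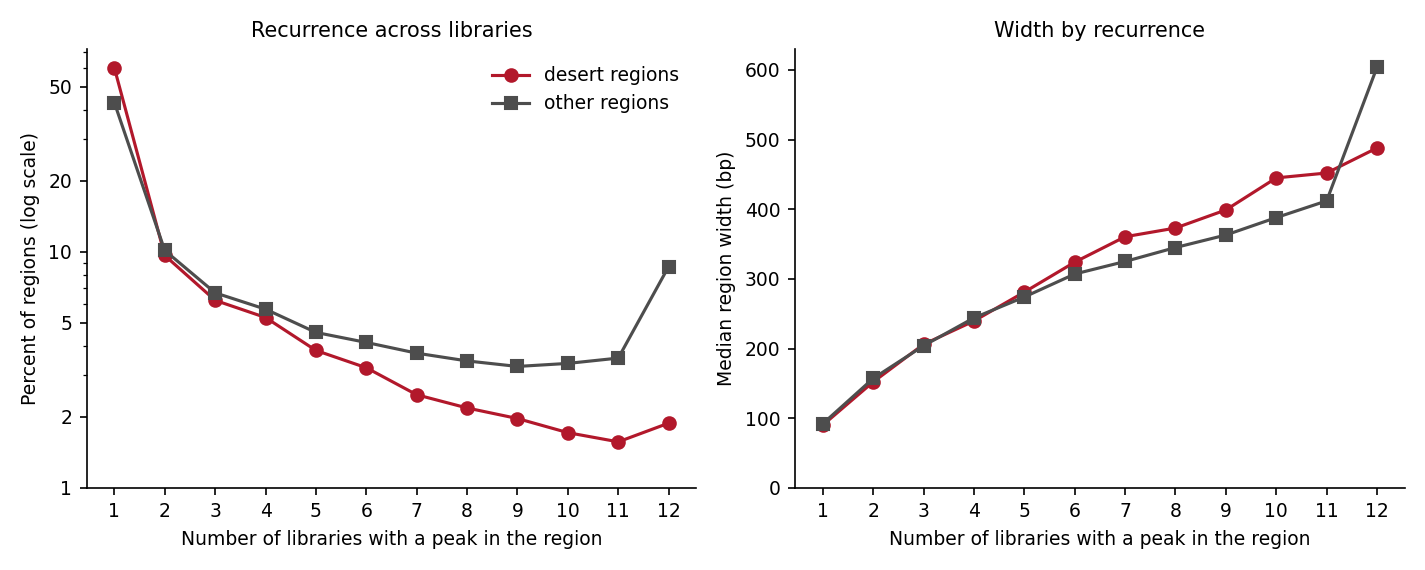
The left panel gives the percent of desert (red) and other (grey) regions by the number of libraries with a peak in the region, on a log axis, and the right panel the median width of the merged regions (bp). The desert curve starts higher, at 60.04% in 1 library, and ends lower, at 1.88% in 12, while widths follow nearly the same line up to 11 libraries.

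These properties changed by degrees with distance. Regions inside a gene were seen in 1 library in 40.9% of cases, regions 200 to 300 kb away in 55.5% and the 1245 regions more than 1 Mb away in 68.9%. The share called in all 12 fell from 11% inside genes to 2.39% at 200 to 300 kb and 1.20% beyond 1 Mb. Median width fell from 183 to 124 and 100 bp over the same steps. There was no break at 200 kb: the bin of 100 to 200 kb, outside the deserts, had 53.1% in 1 library, 2.98% in all 12 and a width of 136 bp. Width of the regions in all 12 followed no such course, with 650 bp inside genes, 433.5 bp within 10 kb of one and 623 bp in the 15 such regions beyond 1 Mb.

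**Figure D3:**
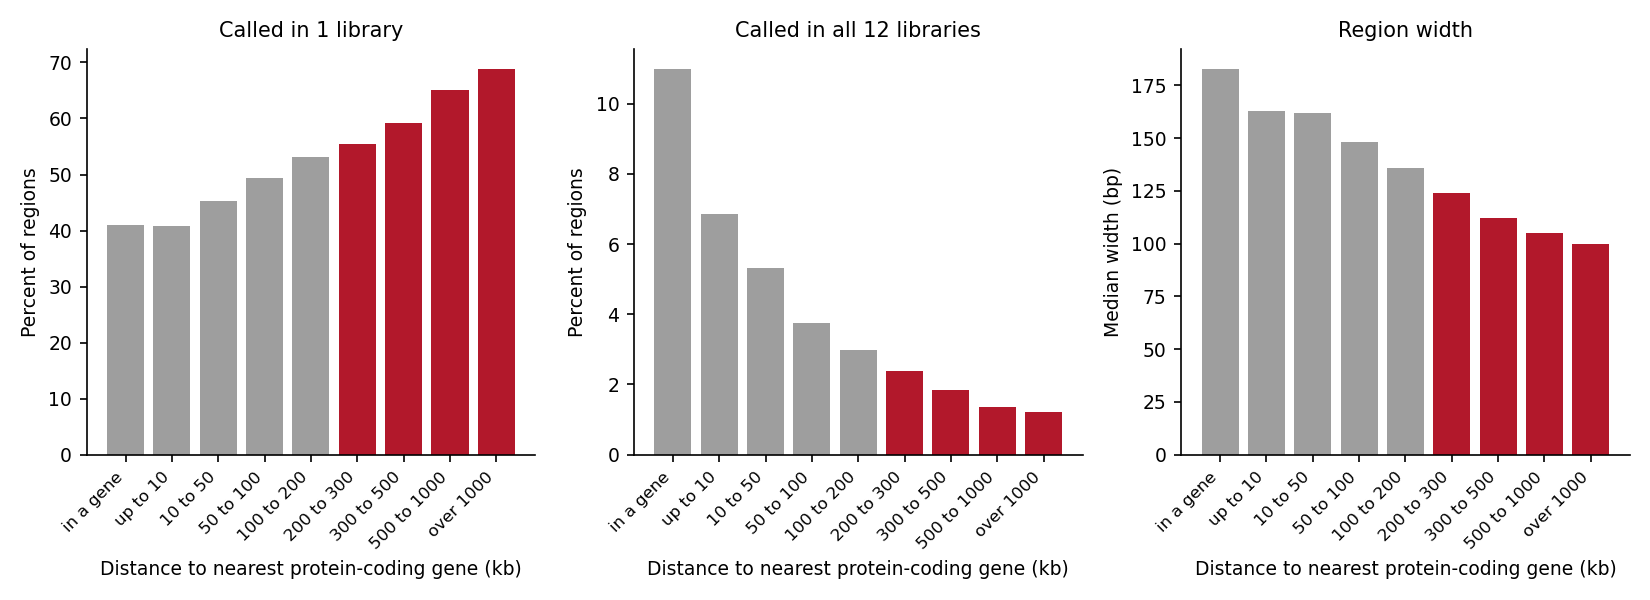
Bars give, by distance to the nearest protein-coding gene (kb), the percent of regions called in 1 library, the percent called in all 12 and the median width (bp). Red bars are desert regions and grey bars the others, and each measure changes step by step with distance, with 1245 regions in the last bin.

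The 282 regions shared by all libraries were spread over every autosome, from 2 on chromosome 19 to 24 on chromosomes 3 and 13. Of the 12 with the widest narrowest peak, the first was chr2:98666238-98667330, between Lrrc4c and Iftap and 1035 kb from the nearer gene, with a peak of 1075 to 1092 bp in every library. A neighbour at chr2:98662237-98662978 had peaks of 729 to 741 bp. In the 8 scored lists the first had a −log10 q of 167 to 321 at a fold of 5.94 to 7.32. No filter for loci of artefact signal was applied here, and the part of such signal in this pair was not tested. A region at the very start of chromosome 9, chr9:3000003-3001526, had peaks of 1501 to 1515 bp in all 4 libraries of the C313Y set and of 633 to 645 bp in the other 8, so that its width went with the set and not with genotype. The first megabases of mouse chromosomes lie beside satellite repeats, and their part in these peaks was not tested.

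Chromosome ends took a share of such regions. Before the first gene of chromosome 9 there were 30 desert regions, of which 6 were called in all 12 libraries, and before that of chromosome 16 there were 26, of which 1 was. In total 81 desert regions (0.540%) lay outside the first or last gene of a chromosome.

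Other shared regions varied more in width. The Gm26901 start (chr1:7397384-7398474) had peaks of 1034 to 1072 bp in 11 libraries and 771 bp in wild-type replicate 2 of the knockout set. The authors' fold there was 7.58 to 10.05. A region 383 kb from Zfp703, a transcriptional co-repressor, at chr8:26593370-26594307, had peaks of 353 to 752 bp. The region chr16:7927611-7928800, between the splicing regulator Rbfox1 and Tmem114, ranged from 367 to 1185 bp.

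By the authors' fold the highest desert peak of a list reached 20.4 to 37.7. The highest peak elsewhere was above it in every scored list, at 35.5 to 43.0. A 143-bp region between Cntnap5b and Cdh20, chr1:102628192-102628334, was called in all 12 libraries. Its fold was 20.4 and 22.7 in Aire -/-, 20.9 and 19.3 in their wild types, 30.3 and 25.5 in Aire +/C442G, and 37.7 and 35.4 in their wild types. Each fold is its own list's value, and the region led the desert peaks of 6 of the 8 scored lists. In the wild types of the knockout set chr9:3025471-3025936 led, with a fold of 22.7 and 22.2. The region chr3:5860339-5860827, after Pex2, kept a width of 475 to 489 bp and a fold of 16.4 to 20.2.

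At the other end, the 3 desert regions farthest from genes were each called in 1 library. They were chr14:90729987-90730053, 2259 kb from Pcdh20, in Aire -/- replicate 2, chr18:27975074-27975141, 2221 kb from Celf4, in Aire -/- replicate 1, and chr14:90689028-90689129, 2218 kb from Pcdh20, in the wild type that stood apart. Their peaks were 67, 68 and 102 bp wide.

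A gain was counted where the 2 mutant libraries of a set had a peak and its 2 wild types had none, and a loss where the pattern was the opposite. No single region can pass a test with 2 libraries against 2, so the share of all autosomal regions called the same way stands beside each count. Aire -/- gained 1363 desert regions, 9.08% of them, where 11.2% of all regions were gained, and lost 6 (0.0400%, against 0.0431%). Aire +/C442G gained 842 (5.61%, against 5.03%) and lost 66 (0.440%, against 0.702%). Aire +/C313Y gained 189 (1.26%, against 2.32%) and lost 114 (0.760%, against 0.719%). These shares were near or below those of all regions, apart from the slightly higher gain in Aire +/C442G and loss in Aire +/C313Y. Regions called in 1 library, 60.04% of desert and 42.8% of other regions, cannot be gained or lost by this rule. Among regions called in at least 2 libraries 4.81% lay in deserts. Deserts held 5.47% of gains in Aire -/-, 7.52% in Aire +/C442G and 3.65% in Aire +/C313Y. Of losses they held 6.25%, 4.22% and 7.125% in the same order. The Aire -/- gains and its 6 losses lay above that base, and the other shares kept their side. The base still holds regions called in all 4 libraries of a set, which cannot be gained or lost either. Deserts held 1.75% of these in the knockout set, 2.57% in the C313Y set and 3.44% in the C442G set. A share above the base thus does not show an excess in deserts.

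Desert regions were fewer than the background among those called throughout a set. In the knockout set 362 desert regions (2.41%, against 9.31% of all regions) had a peak in all 4 libraries. The C313Y set had 797 (5.31%, against 13.9%) and the C442G set 2196 (14.6%, against 28.6%).

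**Figure D4:**
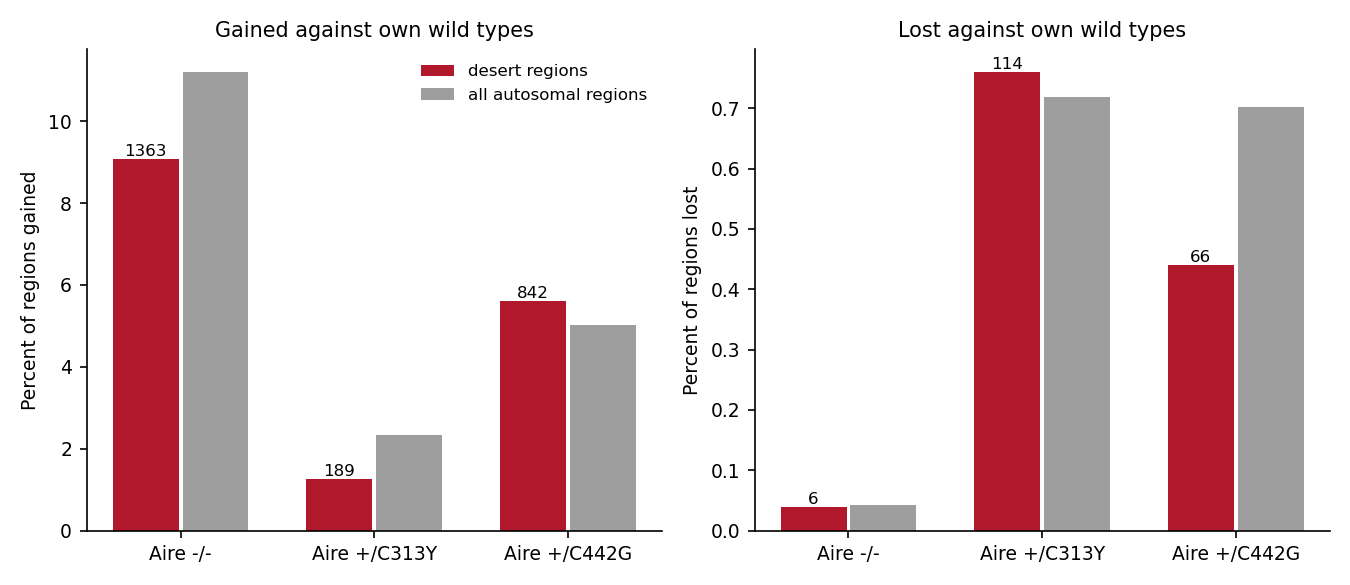
Bars give the percent of desert regions (red, with their number) and of all autosomal regions (grey) that were gained or lost in each mutant genotype against its own wild types. The red bars for gains reach 9.08%, 1.26% and 5.61%, and losses stay under 1% everywhere.

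Some regions gained in Aire -/- were open in wild types of the other sets. Of the 1363, 207 (15.2%) had a peak in all 4 other wild types, beside 18.8% of the gained regions nearer to genes. In none of the 4 were 253 (18.6%, beside 12.8%), which is 1.69% of desert regions where 1.47% of all regions were so called. With lists of equal length Aire -/- had 164 gains (1.68% of the desert regions of those lists, against 2.25% of all regions) and 51 losses (0.523%, against 1.04%). In such lists Aire +/C313Y gained 151 (1.55%, against 2.35%) and lost 135 (1.38%, against 1.16%), and Aire +/C442G gained 387 (3.97%, against 3.06%) and lost 186 (1.91%, against 2.26%). Each share lay on the same side of its background as in the full lists, where the base is again all regions, however few libraries called them. Of the 842 regions gained in Aire +/C442G, 707 were free of peaks in all 6 wild types (4.71%, against 4.19%), and of the 189 gained in Aire +/C313Y, 52 (0.347%, against 0.429%). Without the wild type that stood apart Aire +/C313Y gained 408 (3.34%, against 4.47%) and lost 673 (5.52%, against 4.39%), where a loss needed a peak in 1 wild type.

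The 4 highest ranked gains of Aire -/- are strong by choice, since the rank was by −log10 p. They spanned 115 to 169 bp, where the median of all desert regions gained in Aire -/- was 317 bp. Each was also called in libraries of the other sets. At chr7:136489081-136489247, between Mki67, the proliferation marker, and the DNA repair gene Mgmt, peaks of 93 to 151 bp were called in all 10 libraries outside the wild types of the knockout set. The authors' fold there was 9.70 and 12.3 in Aire -/-. The gains at chr2:63473835-63473949 (between Kcnh7, a potassium channel gene, and Fign) and chr8:89785124-89785292 (between the zinc finger gene Sall1 and Tox3) were each in 9 libraries. That at chr14:102510570-102510686, between Lmo7 and Kctd12, was in 8, absent also from both wild types of the C313Y set.

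Losses in Aire -/- were few. The region chr3:40189379-40189825, between Fat4 and Intu, was absent in both Aire -/- libraries and called in the other 10, with peaks of 95 and 347 bp in its own wild types and 178 to 447 bp in the rest. The region chr2:94737593-94737937, between Api5, an inhibitor of apoptosis, and Lrrc4c, was lost in Aire -/- and in Aire +/C313Y and was called in all 8 other libraries at 90 to 320 bp. It and chr4:56122279-56122423, between the transcription factor gene Klf4 and Actl7b, were the 2 desert regions lost in at least 2 contrasts (0.0133%, against 0.0126% of all regions). The latter was lost in both missense heterozygotes and had no peak in the knockout set.

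Gains of Aire +/C313Y were ranked by width because those lists hold positions only. The widest, chr12:43851285-43852079 between Immp2l and Dnajb9, had peaks of 653 and 505 bp in heterozygotes. It was absent in the wild types of the C313Y and knockout sets and present in the other 8 libraries at 484 to 770 bp. The region chr2:147839602-147840492, between Pax1, which is needed for thymus formation, and Foxa2, had the same presence, with 498 and 386 bp in heterozygotes. The widest loss, chr3:40018430-40018832 between Fat4 and Intu, was called in the 2 wild types of the C313Y set alone, at 367 and 403 bp.

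In Aire +/C442G the first gain was a chromosome 9 start region, chr9:3005855-3005960, also called in 1 Aire -/- library and in 1 of its wild types. The second, chr4:50872712-50872880 between Grin3a, a glutamate receptor subunit gene, and Cylc2, was gained in Aire -/- too. It had peaks of 145 and 151 bp in Aire -/-, 157 and 164 bp in Aire +/C442G and 139 bp in Aire +/C313Y replicate 2, and none in the other Aire +/C313Y library or in any of 6 wild types. A region between the matrix protein gene Tnc and Pappa, chr4:64530725-64530820, had 77 and 96 bp in Aire +/C442G and 71 bp in 1 Aire -/- library. The loss chr1:176505340-176505964, between Pld5 and Cep170, had 384 and 351 bp in wild types and none in heterozygotes.

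Few gains recurred across genotypes. At least 2 contrasts shared 238 gained desert regions (1.59%, against 1.73% of all regions). All 6 mutant libraries and no wild type had 5 of them (0.0333%, against 0.0508%), and the reverse pattern was met by 0 desert regions and 0 regions in all. The widest of the 5, chr4:131385084-131385579 between Matn1, a cartilage matrix gene, and the phosphatase gene Ptpru, had peaks of 491 and 294 bp in Aire -/-, 363 and 83 bp in Aire +/C313Y and 458 and 400 bp in Aire +/C442G. The others were chr1:31915141-31915358 (before Khdrbs2), chr1:56206996-56207223 (between Plcl1 and Hsfy2), chr1:113802562-113802751 (between Dsel and Cntnap5a, 1882 kb from the nearer) and chr18:76543637-76543837 (after Smad2, a transducer of TGF-beta signals). Their peaks were 76 to 205 bp wide.

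Deserts differed in how densely they were filled. Of 737 gaps over 400 kb between neighbouring protein-coding genes, 674 held a desert region, 605 held one seen in at least 2 libraries and 198 one seen in all 12. The median gap held 14 desert regions. The fullest by number was the gap between Zeb2, a repressor of epithelial genes, and the activin receptor gene Acvr2a (chr2:45117443-48814108). It had 113 regions, 34.3 per Mb of interior, and 4 of them were in all 12 libraries. By library it held 25 and 22 in Aire -/- and 7 and 9 in their wild types. Aire +/C313Y libraries held 18 and 12, and their wild types 38, in the library that stood apart, and 20. In the C442G set heterozygotes held 41 and 46 and wild types 35 and 30.

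Next by number came Nudt12 to Efna5 with 109 desert regions (34.2 per Mb) and Nmbr to Cited2 with 107 (41.9 per Mb). Then came Dsel to Cntnap5a with 101 (29.5 per Mb) and Pcdh17 to Diaph3 with 99 (57.6 per Mb). The gap of Dsel and Cntnap5a held no region seen in all 12, and the other 3 held 3 each. Some shorter gaps were fuller per Mb. Between Thap1 and Zfp703 there were 69 desert regions in 0.413 Mb, 167 per Mb, and between Cd83, a maturation marker of dendritic cells that is also made by thymic epithelium, and Jarid2 there were 82, or 155 per Mb. Both had 4 regions seen in all 12. Over all gaps there were 31.1 desert regions per Mb.

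Gaps were also described by the genes at their edges, from a list of developmental transcription factors and one of neuronal adhesion and synapse genes. Of the first list 53 of 72 genes on the autosomes flanked a gap over 400 kb, and of the second 64 of 82. Gaps beside the transcription factors held 16.7 desert regions seen in at least 2 libraries per Mb (632 in 64 gaps, median of the gaps 17.3). Gaps beside the neuronal genes held 8.21 per Mb (1002 in 89 gaps, median 7.33), and gaps beside neither 13.5 per Mb (median 12.02). All gaps held 12.4 per Mb (median 11.3). Regions in all 12 libraries numbered 30 (0.795 per Mb) in the first group, 46 (0.377 per Mb) in the second and 275 (0.573 per Mb) in all gaps. The neuronal gaps were longer, with 122 Mb of interior in 89 gaps against 37.8 Mb in 64, and the lists were not compared at matched length.

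Single genes varied within each list. Beside Myc, a driver of cell growth, 138 desert regions lay in 2 gaps, 71 in at least 2 libraries (34.6 per Mb) and 4 in all 12. Klf5, an epithelial transcription factor, had 72.0 per Mb in the narrow gap it shares with Klf12, and Sox9 had 35.1 per Mb. Among neuronal genes Pcdh17 had 13.1 per Mb, Cdh8 5.95 and Pcdh7 4.79. These genes were picked after their values were seen, to show the range.

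**Figure D5:**
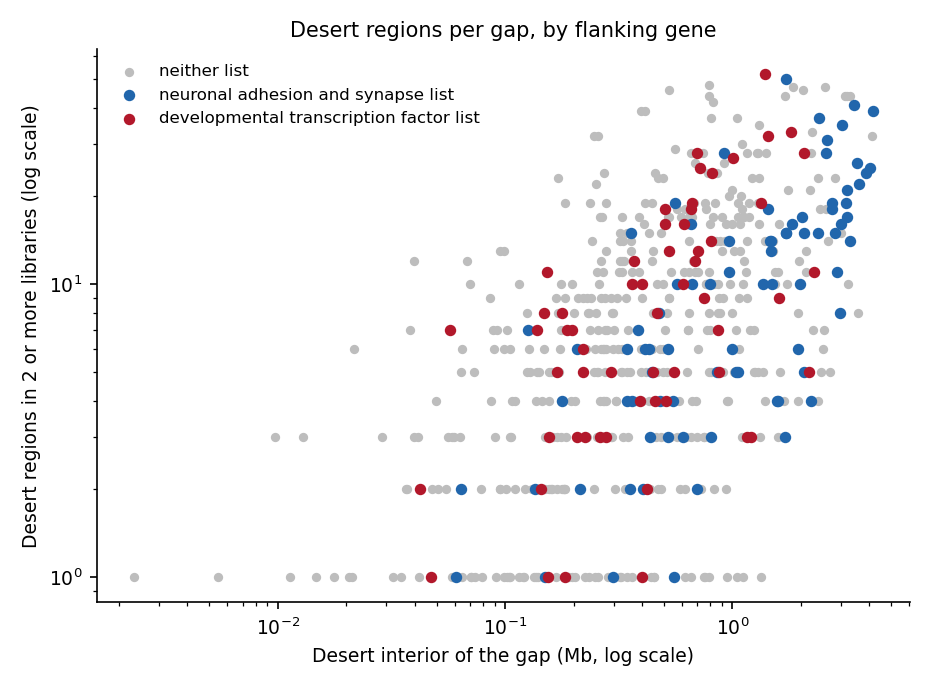
Each point is a gap over 400 kb that held at least 1 desert region seen in 2 or more libraries, by the length of its interior (Mb, log axis) and the number of such regions (log axis). Gaps beside listed developmental transcription factors are red, gaps beside neuronal adhesion and synapse genes blue and the rest grey, and the blue gaps, which are longer, pool to 8.21 such regions per Mb and the red ones to 16.7. The difference was not tested.

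Deserts of protein-coding genes were not empty of annotation. Of the desert regions 2514 (16.8%) lay inside the span of a non-coding gene, as did 19.1% of those in all 12 libraries and 15.0% of those in 1. Only 1303 (8.68%) were also more than 200 kb from every gene of any kind. Of 1023 lncRNA start windows in deserts (300 bases, from 881 genes), 108 (10.6%) overlapped a region and 7 (0.684%) one in all 12 libraries. Of 10288 lncRNA starts elsewhere 28.2% overlapped a region and 11.97% one in all 12.

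Desert starts were also poorer in GC and CpG. The median window had a GC content of 44.0% and 2 CpG in deserts, against 49.0% and 4 at other lncRNA starts. Desert starts open in 6 or more libraries (45) had 47.7% and 5, and other lncRNA starts open in as many had 59.3% and 17. The Gm26901 start printed above, with 65.7% and 18, was like the latter.

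The 10 motifs were searched as plain letters on both strands of the windows. The letters of AP-1 (TGANTCA) were in 13.3% of the 45 desert starts open in 6 or more libraries and 10.2% of the 915 never open, and in 7.84% of all 31396 windows. The CTCF core was in 6.67%, 0.874% and 2.47%, and the letters of RUNX (TGTGGTT) in 8.89%, 4.81% and 5.32%. The NF-kB site gave 13.3%, 10.7% and 20.9%, forkhead (TGTTTAC) 4.44%, 3.72% and 3.71%, and grainyhead (AACCNGTT) 6.67%, 3.72% and 2.09%. The E-box (CAGCTG) gave 8.89%, 15.6% and 16.3%, and the POU octamer (ATGCAAAT) 0%, 2.62% and 1.75%. ETS (CCGGAAGT) gave 0%, 0.656% and 3.95%, and the p63 site 0%, 0.328% and 0.577%. The 63 desert starts open in 1 to 5 libraries had AP-1 in 17.5%, RUNX in 11.1%, forkhead in 6.35% and POU in 3.17%. These shares, and that of the E-box, lay above both other groups of desert starts, so they followed no steady course. CTCF (4.76%), NF-kB (12.7%) and grainyhead (4.76%) lay between those groups, and ETS and p63 were at 0%. With only 45 and 63 starts in the open groups each share rests on few windows, and a match describes letters, not binding. Motifs can overlap one another.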

How the data were processed

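Peaks of 12 ATAC-seq libraries (6 groups of 2) were used as the authors deposited them, 1 list per library. Per the submitters' processing notes cutadapt, Bowtie2, Picard and MACS2 were used on build mm10; the versions, thresholds and any control are not given in the sources at hand. The 8 lists of the knockout and C442G sets carry, per the file format the authors deposited, a score, a fold enrichment ratio over background, −log10 p and −log10 q (lowest 1.00) for each peak. The 4 lists of the C313Y set hold positions only. Peaks were ranked by −log10 p within a list only, and folds of several lists are printed side by side as each list's own values.

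Peaks on chromosomes 1 to 19 were merged where they shared 1 bp or more, and presence in a library meant any peak of it on the region. Distances were measured to the spans of 20661 protein-coding autosomal genes of RefSeq GRCm38.p6, which shares coordinates with mm10. Regions called gained or lost have no test. Groups were compared by exact two-sided permutation within contrasts (6 assignments) or over 3 (216), and desert with other regions by exact sign-flip permutation, with Benjamini-Hochberg adjustment (Python 3.11.15, scipy 1.17.1). Counting was tested on simulated lists. GC content and motifs of the regions themselves were not computed, since no genome was used, and RefSeq start windows took their place, a choice made after seeing the data. Windows of opposite strands that overlap had the same letters in 1765 of 1765 cases. Members, lists and tests were chosen with earlier results of these data known. Regions named are the 12 in all libraries with the widest narrowest peak, the highest ranked gains and losses (by −log10 p percentile, the lower of both libraries, with width in its place for C313Y), the 3 farthest from genes, and the 5 fullest gaps; others named were chosen after their values were seen, and some selected ones are not reported here. Alternatives were other distances, all genes, lists of equal length (by −log10 p, or by width for C313Y), a −log10 q of 3 or more, 50% cover, all 6 wild types as controls, own peaks, each library left out and a replicate block.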

Additional observations from a re-analysis of the deposited data

Results flagged for a closer look

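Among the 6 Aire +/+ libraries, replicate 1 of the C313Y set stood far from the others in the share of its regions that lay in deserts. It had 7.16%, and the gap to the next wild type took up 0.663 of the range of the 6, above Dixon's critical value of 0.625. Chance flags about 1 in 20 groups, and 3 measures were examined in this group. Its number of desert regions and their median width did not stand apart by the same rule. It also had the most regions called nowhere else, 2818.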

How the results depend on the processing

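Width, density and strength of desert against other regions kept their direction and passed under every alternative in which they were rerun. Each was rerun at distances of 100 and 500 kb and with a library left out. At −log10 q of at least 3 width and density were rerun, but not strength. Away from every gene and with lists of equal length only width was. Replicate sharing kept its direction, with -16.4 points (exact permutation p = 0.125) at −log10 q of at least 3 and -18.3 to -15.3 with a library left out, where 5 groups or fewer cannot pass. With lists of equal length the Aire -/- number turned to -0.063 and share to -0.17 points, and over contrasts to -0.13 and -0.42 points. With 50% cover the share over contrasts was -0.027 points. With all 6 wild types as controls the C313Y number turned to 0.10 and the Aire -/- width to -0.020. Leaving out a library gave, over contrasts, 0.55 to 0.99 for number and -0.24 to 0.90 points for share, and for C313Y -1.10 to 0.24 and -3.41 to 0.024 points. The causes were not tested. All values of number and width are log2 ratios.

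Counts of gained and lost desert regions, in the order Aire -/-, Aire +/C313Y, Aire +/C442G, moved with the settings. At over 100 kb gains were 2472, 405 and 1404 and losses 11, 211 and 143, and at over 500 kb gains were 386, 56 and 269 and losses 0, 28 and 8. Away from every gene gains were 94, 10 and 79 and losses 3, 9 and 1. Desert regions numbered 26323, 4682 and 1303 under these distance rules. The share of all regions called is the same under each, with gains of 11.2%, 2.32% and 5.03% and losses of 0.0431%, 0.719% and 0.702%. At −log10 q of at least 3, with 3904 desert regions, Aire -/- gained 518 and lost 1, and Aire +/C442G 436 and 34. Equal lists gave Aire -/- 164 and 51, and Aire +/C442G 387 and 186. With 50% cover Aire -/- gained 756 and Aire +/C313Y 113. For the limit on q and for 50% cover the share of all regions was not computed, so those counts have no background. With all wild types as controls Aire -/- gained 253 and lost 2, Aire +/C313Y gained 52 and lost 3, and Aire +/C442G lost 0. Leaving out a library, gains were 1361 to 3212, 188 to 1100 and 841 to 2281, and losses 6 to 363, 114 to 3435 and 66 to 599. Its group then has 1 library, so a call there rests on that one and the counts are not like those of the full sets. The share in every library was 2.35%, 1.32% and 1.46% at the 3 distance rules, 0.213% with 50% cover and 1.92% to 2.55% with a library left out.

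The knockout and C442G sets share both replicate numbers and the C313Y set only number 2, so the first 2 sets were used. Same-numbered libraries did not deviate together (correlations 0.0097 and -0.0057). With a replicate block the number was 1.37, the share 1.34 points and the width 0.13 (exact permutation p = 0.125 for each, the smallest that 4 pairs allow, so no call could be made). No read counts were used, so a region without a peak means one not called at an unknown depth.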
